A study of Mus musculus with 8 samples.

Results

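The genes described here are 10 genes of de novo lipogenesis, the synthesis of fatty acids from acetyl-CoA, and its regulation: Fasn, Acaca, Acacb, Acly, Acss2, Me1, Thrsp, Srebf1, Mlxipl and Pnpla3. They were taken by name from a table of 30387 genes, where each had 1 line, and all 10 passed the filter on low values that 18800 genes passed. On GRCm38, Fasn (chr11:120805846-120824547, minus strand), Acaca, Acly and Srebf1 lie on chromosome 11, Acacb and Mlxipl on chromosome 5, Acss2 on chromosome 2, Thrsp on chromosome 7, Me1 on chromosome 9 and Pnpla3 on chromosome 15. Expression was measured by RNA-seq in white adipocytes that had been isolated from the epididymal fat of mice. Wild-type littermates (WT) were compared with Ad-Yap/Taz-KO mice (KO), in which floxed Yap and Taz alleles are removed by a constitutive Adipoq-Cre transgene that is active in adipocytes from their differentiation on. Both genotypes received normal chow (NC, called SD in the study's text) or a high-fat diet (HFD) over 4 weeks, with 2 libraries in each of the 4 groups. The start of feeding is week 5 of life by the series text and week 6 by the study's methods, and the ages at the start and at the end are therefore uncertain by 1 week. The Adipoq promoter restricts Cre to adipocytes, so that other cells in a preparation keep both genes.

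Fatty acid synthesis begins in the cytosol, where ATP citrate lyase (Acly) cleaves citrate to acetyl-CoA and acyl-CoA synthetase short-chain family member 2 (Acss2) makes acetyl-CoA from acetate. Acetyl-CoA carboxylases (Acaca and Acacb) form malonyl-CoA, which fatty acid synthase (Fasn) extends to palmitate with NADPH supplied in part by malic enzyme (Me1). Thrsp, also known as Spot 14, is a lipogenic protein of the fat cell nucleus and cytosol, and Pnpla3 encodes a patatin-like protein of lipid droplets. The transcription factors SREBP1 (Srebf1) and ChREBP (Mlxipl) activate genes of this pathway in response to insulin and to glucose metabolites, respectively, and in white fat ChREBP is a main driver of lipogenesis.

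The values are normalized counts, that is, gene counts divided by a size factor of the library. They summed to between 14890264 and 20994246 a library, which stood for 14.0 to 22.3 M reads on genes. Wwtr1, the gene of TAZ, had 5594 and 4743 (WT) and 2441 and 1957 (KO) normalized counts on NC, and 7121 and 6807 against 2060 and 2707 on HFD. Yap1 had 2776 and 2717 against 1669 and 1699 on NC and 2468 and 2333 against 1549 and 2068 on HFD, so that both genes were lower in every KO library than in the WT libraries of the same diet. On HFD the log2 fold change was -1.56 for Wwtr1 (limma adjusted p = 3.11e-05) and -0.42 for Yap1 (limma adjusted p = 0.0591, not called). All 11 adipocyte markers were detected in every group. The WT HFD libraries stood apart in how alike they were: over genes of 1000 to 5000 normalized counts, the mean squared difference between them was 6.18 times the Poisson expectation, against 32.5 to 104 times in the other groups, and it was near the 4.68 to 6.41 times that all 4 groups showed at 5 to 20 normalized counts. They were therefore also averaged to 1 sample, and no SD is given for them. The spread between them may be technical only, and then no p-value with this group measures the spread between WT HFD mice. All 4 groups shared 1 estimate of spread for each gene in the limma fit, although their spreads differed. For Fasn in WT, HFD against NC, the SE was 0.31 in that fit and 0.08 with only the groups compared.

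The 250 bases before the RefSeq transcription start are shown for 4 of the genes because they hold the short motifs described here. All 10 genes matched, with 14 windows of 300 bases, 50 of them after the start. A CCAAT box (CCAAT or, on the other strand, ATTGG), which NF-Y binds, occurred in a window of 9 of 10 genes, and in 41.06% of all 27025 genes with a window. It is in capitals for Fasn (chr11:120824548-120824797, minus strand, GRCm38.p6) and Thrsp (chr7:97417551-97417800, minus strand). The core motif of TEAD factors, the DNA-binding partners of YAP and TAZ (CATTCC or GGAATG, in 14.66% of all 32851 windows), occurred 3 times in the window of Acss2 and once in a window of Me1, and is in capitals for Acss2 (chr2:155517793-155518042, plus strand). An E-box (CACGTG, its own reverse complement, in 7.15% of windows) occurred in 1 member window and is in capitals for Mlxipl (chr5:135089640-135089889, plus strand). The core of a sterol response element (TCACCCCA or TGGGGTGA, in 1.56% of windows) was in none of the 14 windows. Among the matches in the 14 windows, 1 pair overlapped: in Fasn, which has 3 CCAAT box matches, a CCAAT shares 2 bases with an ATTGG and they are printed as 1 run of capitals. Each match describes only the letters of the window.
Fasn: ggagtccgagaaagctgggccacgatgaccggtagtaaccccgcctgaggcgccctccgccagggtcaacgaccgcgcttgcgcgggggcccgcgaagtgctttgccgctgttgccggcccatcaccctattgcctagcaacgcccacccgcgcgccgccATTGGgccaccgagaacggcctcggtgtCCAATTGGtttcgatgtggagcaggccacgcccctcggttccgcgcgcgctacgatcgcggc
Thrsp: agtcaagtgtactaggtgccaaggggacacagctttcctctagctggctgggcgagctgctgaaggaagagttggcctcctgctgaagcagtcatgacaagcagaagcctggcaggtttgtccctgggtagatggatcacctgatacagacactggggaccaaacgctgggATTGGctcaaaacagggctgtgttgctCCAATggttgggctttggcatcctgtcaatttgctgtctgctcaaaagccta
Acss2: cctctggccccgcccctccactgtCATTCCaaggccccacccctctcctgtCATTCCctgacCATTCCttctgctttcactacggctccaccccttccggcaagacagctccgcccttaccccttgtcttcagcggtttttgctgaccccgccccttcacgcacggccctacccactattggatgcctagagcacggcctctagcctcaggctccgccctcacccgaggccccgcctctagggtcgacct
Mlxipl: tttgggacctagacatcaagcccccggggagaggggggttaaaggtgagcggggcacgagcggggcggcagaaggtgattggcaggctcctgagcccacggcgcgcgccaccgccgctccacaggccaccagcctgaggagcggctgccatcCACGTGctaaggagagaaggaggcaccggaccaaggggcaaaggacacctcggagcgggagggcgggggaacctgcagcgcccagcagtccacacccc

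Among the 10 genes, Fasn differed most between the genotypes on HFD. It had 42835 and 44565 normalized counts in WT mice on NC, 18280 and 27415 in KO on NC, 135080 and 138092 in WT on HFD, and 20503 and 9040 in KO on HFD. Both WT HFD libraries were far above all others, and the highest KO library of either diet was below the lowest WT library. The WT mean was 9.25 times the KO mean on HFD and 1.91 times on NC.

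In adipocytes from mice fed HFD, 9 of the 10 lipogenic genes fell in KO against WT, and only Acacb was not called. Of all genes tested 15.1% were called lower and 17.1% higher in this comparison, and the median log2 fold change was -1.79 over the 10 genes against 0.10 over all genes. Every one of the 10 genes had both KO libraries below both WT libraries, as did 33% of all genes tested. In bulk RNA, fewer adipocytes in a preparation and less RNA per adipocyte cannot be told apart, and adipocyte markers fell in the same comparison: 9 of 11 were called lower and 0 higher (median -1.51), with summed levels of 613653 to 626914 in WT and 191567 to 370232 in KO. All 10 macrophage markers were called higher (median 4.13), with sums of 2202 to 2275 in WT and 29582 to 32591 in KO. Of the 7 fibroblast and progenitor markers 6 were higher and 0 lower, with sums of 21988 to 22477 against 70206 to 78927. No marker on these 3 lists was at 0 in both libraries of a group, and the part of these shifts in the lipogenic genes was not tested. Transcripts of the mitochondrial genome took 10.4% and 9.57% of the WT HFD libraries and 18.7% and 16.0% of the KO HFD libraries, and 9.51% and 9.56% (WT) and 12.7% and 16.0% (KO) on NC, and the part of this difference was not tested either.

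**Figure D1:**
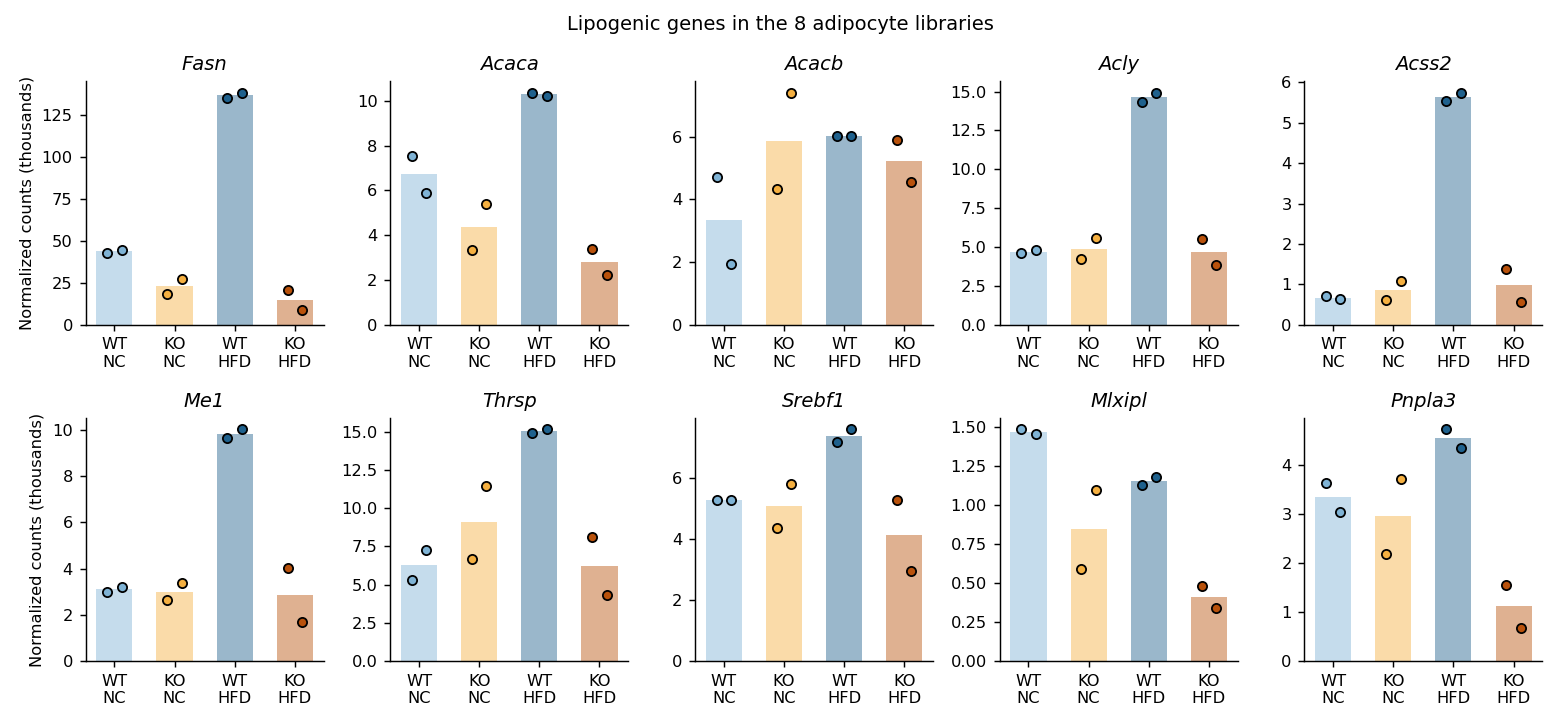
Normalized counts, shown in units of 1000, of the 10 lipogenic genes in the 4 groups of 2 libraries; points are libraries and bars are means, on axes that start at 0. On HFD every gene has both KO libraries below both WT libraries, and Fasn reaches 135080 and 138092 normalized counts in WT.

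The enzymes that feed Fasn with acetyl-CoA differed on HFD too. Acly had 14344 and 14930 (WT) and 5484 and 3834 (KO) normalized counts on HFD, against 4608 and 4782 (WT) and 4234 and 5563 (KO) on NC. Acss2 had 5540 and 5748 (WT) and 1381 and 573 (KO) on HFD, against 702 and 636 (WT) and 622 and 1091 (KO) on NC. For both genes the WT HFD libraries were high and the other 6 libraries were low. With limma and Benjamini-Hochberg adjustment over all genes tested, Fasn fell by 3.33 on the log2 scale on HFD (SE 0.31, adjusted p = 8e-06), Acss2 by 2.66 (SE 0.33, adjusted p = 7.6e-05) and Acly by 1.67 (SE 0.19, adjusted p = 3.1e-05).

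The carboxylases did not behave alike. Acaca, the cytosolic enzyme that makes malonyl-CoA for synthesis, had 7557 and 5870 (WT) and 3356 and 5383 (KO) normalized counts on NC, and 10366 and 10204 (WT) and 3375 and 2208 (KO) on HFD. Acacb, whose product at mitochondria limits fatty acid import for oxidation, had 4721 and 1943 (WT) and 4337 and 7413 (KO) on NC, and 6019 and 6015 (WT) and 5905 and 4560 (KO) on HFD. Acaca had both KO libraries below both WT libraries on each diet, as did 22.2% of all genes tested on NC and 33% on HFD. On NC its nearest values were 5870 and 5383, and it was not called (log2 fold change -0.65, limma adjusted p = 0.176). The Acacb groups overlapped on NC and lay close together on HFD. On HFD Acaca fell by 1.91 (SE 0.24, limma adjusted p = 7.2e-05), and Acacb had a log2 fold change of -0.21 with a 95% confidence interval from -0.94 to 0.51 (limma adjusted p = 0.656), which leaves room for a change of nearly 1 log2 unit downward.

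Me1, which yields NADPH, had 9643 and 10011 (WT) and 4050 and 1716 (KO) normalized counts on HFD, against 3001 and 3222 (WT) and 2645 and 3375 (KO) on NC. Thrsp had 14920 and 15146 (WT) and 8092 and 4343 (KO) on HFD, against 5310 and 7257 (WT) and 6668 and 11474 (KO) on NC. In both genes the WT HFD libraries were the highest, and the NC libraries of the 2 genotypes overlapped. Pnpla3 had 3649 and 3052 (WT) and 2199 and 3724 (KO) on NC, and 4738 and 4365 (WT) and 1560 and 684 (KO) on HFD. Its KO HFD libraries were the lowest of all 8. On HFD the log2 fold changes were -2.14 for Pnpla3 (SE 0.32, limma adjusted p = 0.000279), -1.90 for Me1 (SE 0.29, limma adjusted p = 0.000353) and -1.34 for Thrsp (SE 0.29, limma adjusted p = 0.00347).

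Of the transcription factors, Srebf1 had 5278 and 5292 (WT) and 4362 and 5810 (KO) normalized counts on NC, and 7186 and 7596 (WT) and 5297 and 2964 (KO) on HFD. Mlxipl had 1486 and 1457 (WT) and 591 and 1099 (KO) on NC, and 1130 and 1180 (WT) and 482 and 344 (KO) on HFD. Mlxipl was lower in each KO library than in every WT library of either diet, and it was the only one of the 10 genes whose WT HFD libraries lay below its WT NC libraries. On HFD the mean of Mlxipl in WT was 2.80 times that in KO (95% confidence interval of the log2 fold change -2.05 to -0.95, SE 0.25, limma adjusted p = 0.000728) and Srebf1 fell by 0.90 (SE 0.23, limma adjusted p = 0.00957). The Srebf1 call was lost when the averaged WT HFD sample was used (limma adjusted p = 0.0743), with either WT HFD library left out (adjusted p = 0.0581 without the first and 0.0832 without the second) and without the second KO HFD library (log2 fold change -0.48, adjusted p = 0.0798). It was also lost with no filter on low values (adjusted p = 0.0525), with libraries scaled to the same total (-0.51, adjusted p = 0.0564) and with quantile normalization (-0.54, adjusted p = 0.0781). The other 8 calls remained in each of these 7 fits.

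Relative to the adipocyte markers, the fall on HFD was smaller and unequal. When each library was scaled to the mean log2 level of its 11 adipocyte markers, the log2 fold change in KO versus WT on HFD was -1.70 for Fasn (SE 0.36, limma adjusted p = 6.21e-05) and -1.03 for Acss2 (SE 0.41, limma adjusted p = 0.0222), and both remained called lower. Acacb was called higher, at 1.42 (SE 0.39, limma adjusted p = 0.0014). The other 7 genes were not called, with values from -0.51 for Pnpla3 to 0.73 for Srebf1, and the calls for lower levels went from 9 to 2. This scaling moved the median of all genes from 0.10 to 1.72, and 65.2% of all genes tested were then called higher and 0.686% lower. It takes the markers as the reference although 9 of them had themselves been called lower, among them Lep.

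**Figure D2:**
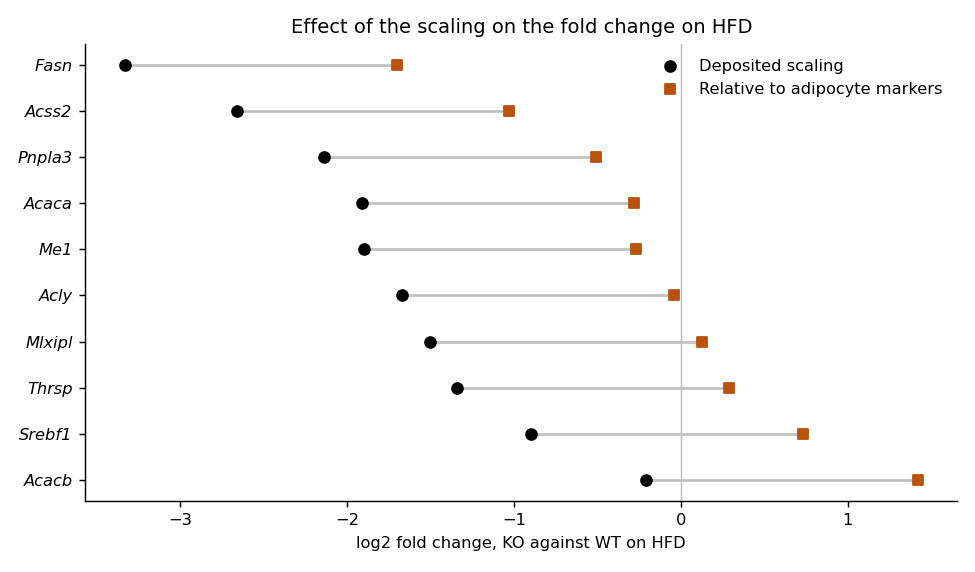
Log2 fold change of each lipogenic gene in KO versus WT on HFD, with the deposited scaling (black circles) and with each library scaled to its adipocyte markers (orange squares). Fasn moves from -3.33 to -1.70, Srebf1 from -0.90 to 0.73 and Acacb from -0.21 to 1.42.

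Ratios of 2 genes within a library do not depend on its scaling. Fasn over Adipoq, the gene of the adipocyte hormone adiponectin, was 1.22 and 1.34 in WT on NC and 2.46 and 2.59 in WT on HFD. The ratio was 0.686 and 0.700 in KO on NC and 0.750 and 0.680 in KO on HFD, so that the 4 KO libraries lay within 0.680 to 0.750 and below all WT libraries on either diet. Fasn over Plin1, which encodes a coat protein of lipid droplets, was also lower in each KO library than in every WT library, with 1.27 and 1.16 in WT and 0.613 and 0.724 in KO on NC, and 2.38 and 2.41 in WT and 0.867 and 0.727 in KO on HFD. Acaca over Acacb was at least 1.60 in the 4 WT libraries and at most 0.774 in the 4 KO libraries. Srebf1 over Mlxipl was 3.55 and 3.63 in WT and 7.38 and 5.29 in KO on NC, and 6.36 and 6.44 in WT and 11.0 and 8.62 in KO on HFD, higher in the KO libraries of each diet. Fasn over Acaca stood apart in WT on HFD, at 13.0 and 13.5 against 4.09 to 7.59 in the other 6 libraries. Of the 7 ratios computed, Me1 over Acly varied least by its highest value over its lowest, between 0.448 and 0.738 in all 8 libraries. With 2 libraries a group, the smallest 2-sided p of an exact permutation test is 0.333, and the ratios are given without a test.

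**Figure D3:**
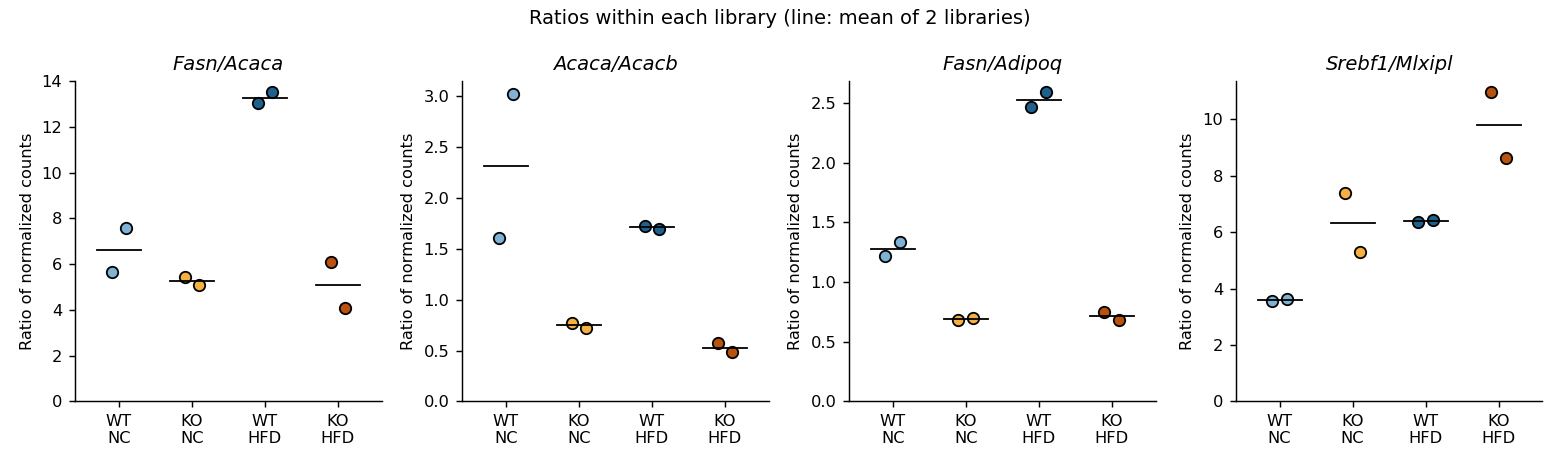
Ratios of normalized counts within each library for 4 gene pairs; points are libraries, lines are means of 2 libraries and axes start at 0. Fasn over Adipoq lies between 0.680 and 0.750 in the 4 KO libraries, and Fasn over Acaca is 13.0 and 13.5 in WT on HFD.

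On NC, none of the 10 genes was called between the genotypes with limma, where 1.5% of all genes tested were called lower and 3.21% higher, and 4 of the 10 had an unadjusted p under 0.05 (Mlxipl, Fasn, Acaca and Acacb). Fasn, Acaca and Mlxipl had both KO libraries below both WT libraries, as did 22.2% of all genes tested, and no gene had both above. The log2 fold changes were -0.97 for Fasn (SE 0.31, limma adjusted p = 0.121), -0.87 for Mlxipl (SE 0.25, limma adjusted p = 0.0805), -0.65 for Acaca (SE 0.24, limma adjusted p = 0.176) and 0.90 for Acacb (SE 0.34, limma adjusted p = 0.179). Acacb rested on a wide WT group, with 4721 and 1943 normalized counts, and was called higher without the first WT NC library. Mlxipl and Acaca were called lower without the second KO NC library, and Mlxipl also with libraries scaled to the same total, at -0.91. The other 6 genes lay between -0.22 for Pnpla3 and 0.50 for Thrsp. Macrophage markers were higher in this comparison too (10 of 10 called, sums of 4807 to 4865 in WT and 16436 to 29883 in KO), while the 11 adipocyte markers had a median of -0.09 and sums of 481327 to 495204 in WT and 458726 to 626629 in KO, and the part of either list in these values was not tested. Of the 4 tested brown adipocyte markers 2 were called higher (median 2.21), with sums over the list of 48 to 65 in WT and 300 to 327 in KO, and their part was not tested either.

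In WT mice the acetyl-CoA enzymes, Fasn, Me1 and Thrsp rose on HFD, 5 of the 10 genes in all, where 8.74% of all genes tested were called higher and 9.22% lower. Acss2 rose most, by 3.08 on the log2 scale (SE 0.33, limma adjusted p = 0.000186), and its mean was 8.44 times that on NC. Me1 rose by 1.66 (SE 0.29, limma adjusted p = 0.00323), Fasn by 1.64 (SE 0.31, limma adjusted p = 0.00486), Acly by 1.64 (SE 0.19, limma adjusted p = 0.000274) and Thrsp by 1.28 (SE 0.29, limma adjusted p = 0.0109). Of the 10 genes 9 had both HFD libraries above both NC libraries, as did 31.4% of all genes tested, but Acacb (0.99), Acaca (0.63), Srebf1 (0.48) and Pnpla3 (0.45) were not called, nor was Mlxipl (-0.35). When WT HFD was averaged to 1 sample, the calls for Acly and Acss2 remained and those for Fasn, Me1 and Thrsp did not. Acly and Acss2 also remained called without the first WT NC library, where Acacb was called too, at 1.63. Without the second WT HFD library they remained with Me1. Fewer of all genes tested were called higher in each of these fits, so the losses were not particular to the 10 genes. Markers of other cells were lower on HFD in the same libraries: 9 of 10 macrophage markers (median -1.17, sums of 4807 to 4865 on NC and 2202 to 2275 on HFD), 4 of 7 fibroblast and progenitor markers (median -1.03) and 3 of 6 endothelial markers (median -0.78) were called lower and 0 higher. Of the 11 adipocyte markers 2 were called higher and 1 lower (median 0.66), with sums of 481327 to 495204 on NC and 613653 to 626914 on HFD, and the part of these shifts was not tested. This comparison and that of the genotypes on HFD share the WT HFD libraries, so their opposite directions are not separate evidence. Scaled to the adipocyte markers, Acss2 (2.54), Me1 (1.13), Fasn (1.11) and Acly (1.11) were still called higher, as were 0.617% of all genes tested.

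In KO mice none of the 10 genes rose on HFD and 1 fell, Pnpla3 at -1.47 (SE 0.32, limma adjusted p = 0.049), where 0.691% of all genes tested were called lower and 0.383% higher. Its call was lost in 8 of 13 other settings and without the second KO NC or the second KO HFD library. Pnpla3 and Mlxipl had both HFD libraries below both NC libraries, as did 19.3% of all genes tested. Mlxipl had a log2 fold change of -0.98 (SE 0.25, limma adjusted p = 0.0861), Fasn -0.72, Acaca -0.64 and Thrsp -0.56, and the other 5 genes lay between -0.35 and 0.11. The KO libraries of each diet differed throughout: in all 10 genes the second KO NC library was above the first and the first KO HFD library above the second. The adipocyte marker sums had the same order, with 458726 and 626629 on NC and 370232 and 191567 on HFD, and their part was not tested. Without the first KO HFD library the log2 fold changes were -2.06 for Pnpla3, -1.31 for Fasn, -1.23 for Mlxipl, -0.80 for Me1 and -0.76 for Srebf1. Without the second they were -0.87, -0.13, -0.74, 0.44 and 0.07 in the same order. Without the first KO NC library Pnpla3 was at -1.85, Mlxipl at -1.43 and Acaca at -0.98, and without the second at -1.09, -0.54 and -0.30. Relative to the adipocyte markers, Acss2 was the one gene called, higher on HFD at 1.12, where 15.2% of all genes tested were called higher.

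**Figure D4:**
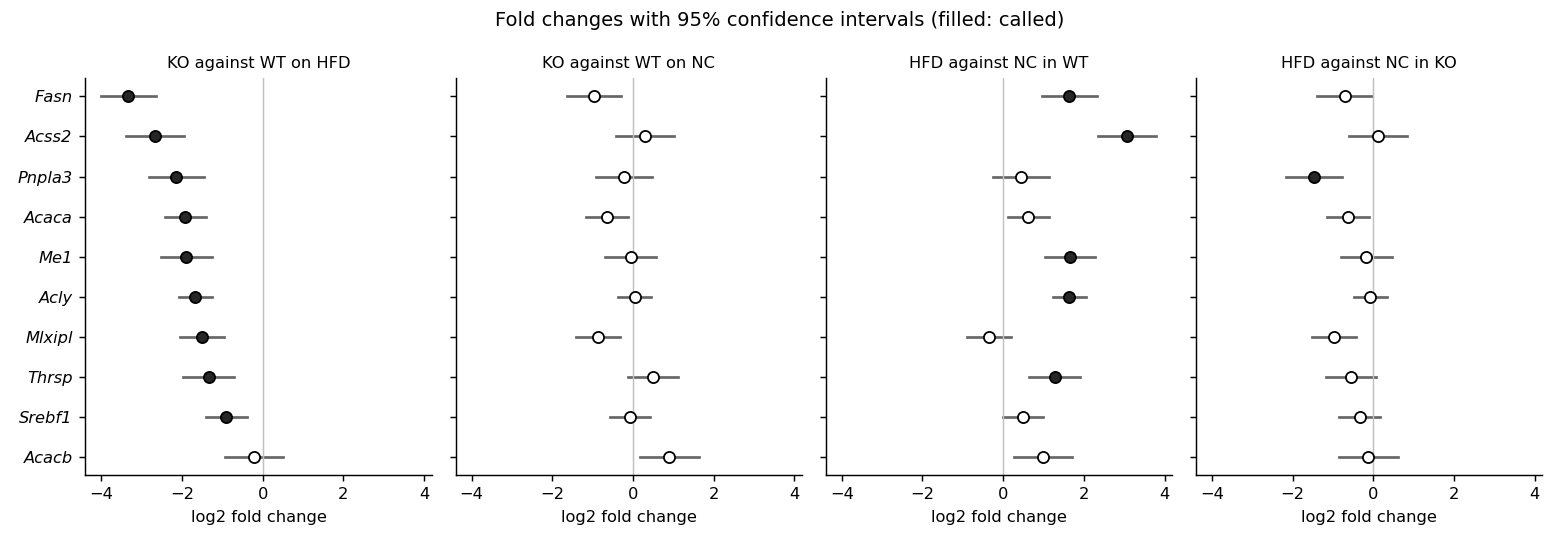
Log2 fold changes of the 10 lipogenic genes in 4 comparisons with 95% confidence intervals from the limma fit; filled points are called, at an adjusted p of at most 0.05 and an absolute log2 fold change of at least 0.59. On HFD 9 genes are called lower in KO, on NC none, and in WT 5 are called higher on HFD.

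The genotype effect itself was compared between the diets by the interaction term, which was called for 7 of the 10 genes, in each as a more negative effect on HFD. Of all genes tested 8.73% were called in that direction and 8.69% in the other. The difference of the log2 fold changes was largest for Acss2, at -2.97 (SE 0.47, limma adjusted p = 0.00376), and Fasn, at -2.36 (SE 0.44, limma adjusted p = 0.00699). Pnpla3 (-1.92), Me1 (-1.84), Thrsp (-1.84), Acly (-1.72) and Acaca (-1.27) were also called. Acacb (-1.12), Srebf1 (-0.83) and Mlxipl (-0.63) were not, with limma adjusted p = 0.119, 0.0964 and 0.236. The calls for Acss2 and Acly, and no others, remained when WT HFD was averaged to 1 sample. No others of the 7 remained without the first WT NC library either, where Acacb was also called. Those for Acss2 and Acly remained with Fasn without either WT HFD library, and with Fasn and Thrsp without the second KO NC library. In each of these fits fewer of all genes tested were called in the negative direction than in the fit of all 8 libraries. Markers were called by this term too, 7 of 11 adipocyte markers in the negative direction (median -1.40), and 10 of 10 macrophage (median 1.89), 6 of 7 fibroblast and progenitor (median 1.74) and 5 of 6 endothelial markers (median 1.40) in the positive one, and their part was not tested. Acss2 alone was called relative to the adipocyte markers, at -1.43 (SE 0.57, limma adjusted p = 0.0469), where 0.112% of all genes tested were called in that direction and 31.9% in the other.

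As a share of each library, the 10 genes together took 0.510% and 0.492% of the normalized counts in WT mice on NC, 0.306% and 0.427% in KO on NC, 0.995% and 1.02% in WT on HFD, and 0.326% and 0.203% in KO on HFD. The groups did not overlap between genotypes on either diet. Fasn alone made up 0.643% and 0.663% in WT on HFD. Scd1, the desaturase that acts on the products of Fasn, took 12.4% and 12.3% of the WT HFD libraries against 1.06% to 2.95% of the others, so the shares of other genes there are lowered by it. With Scd1 and the mitochondrial genome left out of the totals, the WT HFD shares were 1.29% and 1.31%.

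Levels of different genes were compared per kb of annotated exon. In WT on NC, Fasn was highest, with a mean of 3992 normalized counts per kb, followed by Thrsp (2871), Pnpla3 (2164), Srebf1 (938), Acly (889), Me1 (809), Acaca (393), Acacb (346), Mlxipl (266) and Acss2 (65.8). In that order only Acaca and Acacb, and Acacb and Mlxipl, overlapped between their libraries. In WT on HFD, Fasn (12477) and Thrsp (6868) were again highest, Acly (2773) and Me1 (2554) lay next to Pnpla3 (2940), whose libraries overlapped with those of Acly, and Mlxipl (209) was lowest, with Acss2 at 555. The order of the leading pair was the other one in KO: Thrsp was above Fasn in both groups without overlap between libraries, at 4144 against 2087 on NC and 2840 against 1349 on HFD. Acacb was above Acaca in both KO groups, at 610 against 256 on NC and 543 against 163 on HFD. The exons of Acss2, Me1, Srebf1, Mlxipl and Pnpla3 overlap other annotated genes, where reads could be missing or misassigned. A single such gene covers at most 6.78% of the exon length (Pnpla3), and Acss2 has 3 of them, which cover 1.94%, 3.3% and 3.89%. The opposite-strand overlaps concern Acss2, Me1, Srebf1 and Mlxipl, and the strand setting of the counting was not given in the sources used here.

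Among 10 regulators of the SREBP pathway, 3 fell in KO on HFD and 0 rose. Beside this list and those below, 15.1% of all genes tested were called lower and 17.1% higher in KO on HFD. In WT on HFD 8.74% of all genes tested were called higher and 9.22% lower. Insig1, a sterol-regulated anchor of SREBP in the endoplasmic reticulum and itself an SREBP target, had 11580 and 11254 (WT) and 4565 and 2924 (KO) normalized counts (log2 fold change -1.64). Its paralog Insig2 was at -1.26 and Rxra, the partner of the LXR receptors, at -1.62. Scap (0.04), the escort of SREBP, Srebf2 (0.24), the LXR genes Nr1h2 (-0.06) and Nr1h3 (-0.48), the proteases Mbtps1 (-0.50) and Mbtps2 (0.20), and the ubiquitin ligase gene Fbxw7 (0.15) were not called. In WT, Insig1 (2.54) and Insig2 (0.92) were the 2 genes of this list that rose on HFD. The Insig2 call was lost when WT HFD was averaged to 1 sample (limma adjusted p = 0.104), with libraries scaled to the same total (0.51, adjusted p = 0.0695) and relative to the adipocyte markers (0.39, adjusted p = 0.634).

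Around ChREBP, 8 genes were listed and 7 passed the filter on low values, since Pklr had at most 5 normalized counts. Mlx, the dimerization partner of ChREBP, fell on HFD (-0.94), as did the insulin-responsive glucose transporter gene Slc2a4 (-1.35) and Slc2a2 (-3.44). Slc2a2 rested on 32 and 49 against 13 and 0 normalized counts. Of these 3 calls only that of Slc2a4 remained when WT HFD was averaged to 1 sample (limma adjusted p = 0.0805 for Mlx and 0.144 for Slc2a2), without the second KO HFD library (adjusted p = 0.0963 and 0.335) or with libraries scaled to the same total (adjusted p = 0.0983 and 0.0562). Arrdc4, a glucose-responsive arrestin gene, rose, from 152 and 145 in WT to 377 and 453 in KO (1.47). Its relative Txnip fell on NC, from 10304 and 9421 to 4106 and 5447 (-1.06, limma adjusted p = 0.00196), and had -0.48 on HFD, which was not called. The interaction term was called for Arrdc4, at 1.68, and for Slc2a4, at -1.18. In 5 of 6 other fits (WT HFD averaged to 1 sample, libraries scaled to the same total, quantile normalization, scaling to the adipocyte markers, and without the second KO HFD library) the Slc2a4 interaction was not called (limma adjusted p = 0.0912 to 0.606), and it was positive relative to the markers (0.36), whereas Arrdc4 remained called in all 6.

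Of 11 genes that regulate ACC and FASN, 5 fell on HFD in KO and 0 rose. They were Mid1ip1 (561 and 668 against 336 and 278 normalized counts), the paralog of Thrsp that promotes ACC polymerization, the AMPK subunit genes Prkaa2 (-1.41), Prkag2 (-1.11) and Prkaa1 (-1.03), which belong to the kinase that inhibits ACC, and malonyl-CoA decarboxylase (Mlycd, -0.74). The list thus held activators and inhibitors of the pathway among the genes that fell. On NC the AMPK subunit gene Prkab2 rose from 600 and 684 to 1242 and 1837 (1.24, limma adjusted p = 0.00263).

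Of 16 genes for the supply of cytosolic citrate and NADPH, 10 fell in KO on HFD and 0 rose, and 5 rose in WT on HFD and 0 fell. G6pdx, the entry enzyme of the pentose phosphate pathway, had 6792 and 6768 normalized counts in WT on HFD and 1395 to 2481 in the other 6 libraries (-1.89 in KO on HFD). The largest other changes were those of H6pd (-1.77), the acetoacetyl-CoA synthetase gene Aacs (-1.40), Pgd (-1.36) and Acss3 (-1.32). In WT on HFD, G6pdx (1.61), Pgd (1.44), the citrate carrier gene Slc25a1 (1.27), Mdh1 (0.85) and Idh1 (0.81) rose. Of these 5 calls in WT, 1 was left when WT HFD was averaged to 1 sample (G6pdx), 2 with quantile normalization, 3 with libraries scaled to the same total and 0 relative to the adipocyte markers.

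Of 11 genes that modify or esterify fatty acids after Fasn, 8 fell on HFD in KO and 0 rose, and 7 rose in WT on HFD and 0 fell. The 7 calls in WT went to 3 (Scd1, Scd2 and Agpat2) both when WT HFD was averaged to 1 sample and relative to the adipocyte markers. Elovl6, which elongates palmitate, had 1087 and 999 (WT) and 106 and 144 (KO) normalized counts on HFD (-3.07, limma adjusted p = 1.49e-06). It was the one gene of the list called on NC as well, with 390 and 438 against 145 and 198 (-1.28, limma adjusted p = 0.00669). The desaturase genes Scd1 (-2.85), Scd2 (-2.72) and Fads1 (-1.66) and the triglyceride synthesis gene Dgat2 (-2.56) followed on HFD.

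Of the 6 other patatin-like genes, Pnpla2, the adipose triglyceride lipase gene (-0.94), and Pnpla8 (-0.84) fell on HFD. Pnpla1 was called higher on 0 and 0 against 12 and 23 normalized counts, and none of the 3 remained called without the second KO HFD library. Pnpla2 is also 1 of the 11 adipocyte markers. Of 11 other transcription factors, 4 fell on HFD: Klf15 (-1.80), the adipocyte master regulators Pparg (-1.29) and Cebpa (-1.24), and Nr1d1 (-0.64). Nfya, which encodes a subunit of the CCAAT-binding factor NF-Y, rose from 370 and 307 to 731 and 843 (1.22, limma adjusted p = 0.00094), while Nfyb (-0.08) and Nfyc (0.14) were not called.

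Relative to the adipocyte markers, the calls of these lists for lower levels on HFD did not remain, except for Elovl6 (-1.44), Scd1 (-1.22), Scd2 (-1.09) and Dgat2 (-0.93), and genes of each list were called higher in KO, where 65.2% of all genes tested were called higher in this scaling. These were 7 of 10 in the SREBP list, 4 of 7 around ChREBP, 4 of 11 that regulate ACC and FASN, 6 of 16 for citrate and NADPH, 3 of 11 of fatty acid modification, 3 of 6 patatin-like genes and 8 of 11 other transcription factors. Among them, Arrdc4 (3.10) and Nfya (2.85) had been called higher before, and Nr1d1 (0.99) and Taldo1 (0.82) had been called lower. On NC the calls of Prkab2 (1.33, limma adjusted p = 0.106), Txnip (-0.97, adjusted p = 0.299) and Elovl6 (-1.19, adjusted p = 0.415) were lost in this scaling. All 7 lists had positive medians on HFD in this scaling, 0.29 for fatty acid modification and 0.78 to 1.60 for the other 6, beside 1.72 for all genes. With libraries scaled to the same total, where 24.6% of all genes tested were called higher and 7.27% lower, 3 genes of the ChREBP list were called higher and 1 lower, and 2 patatin-like genes higher and 0 lower, while 8 of 11 genes of fatty acid modification and 7 of 16 citrate and NADPH genes were still called lower. Without the second KO HFD library, where 9.74% of all genes tested were called lower, 6 of 16 citrate and NADPH genes and 6 of 11 genes of fatty acid modification were called lower. When WT HFD was averaged to 1 sample (8.14% of all genes tested called lower), the lower calls in KO on HFD were 7 of 16 for citrate and NADPH, 7 of 11 for fatty acid modification, 4 of 11 for ACC and FASN regulation, 3 of 10 in the SREBP list, 3 of 11 other transcription factors, 1 of 7 around ChREBP and 0 of 6 patatin-like genes.

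**Figure D5:**
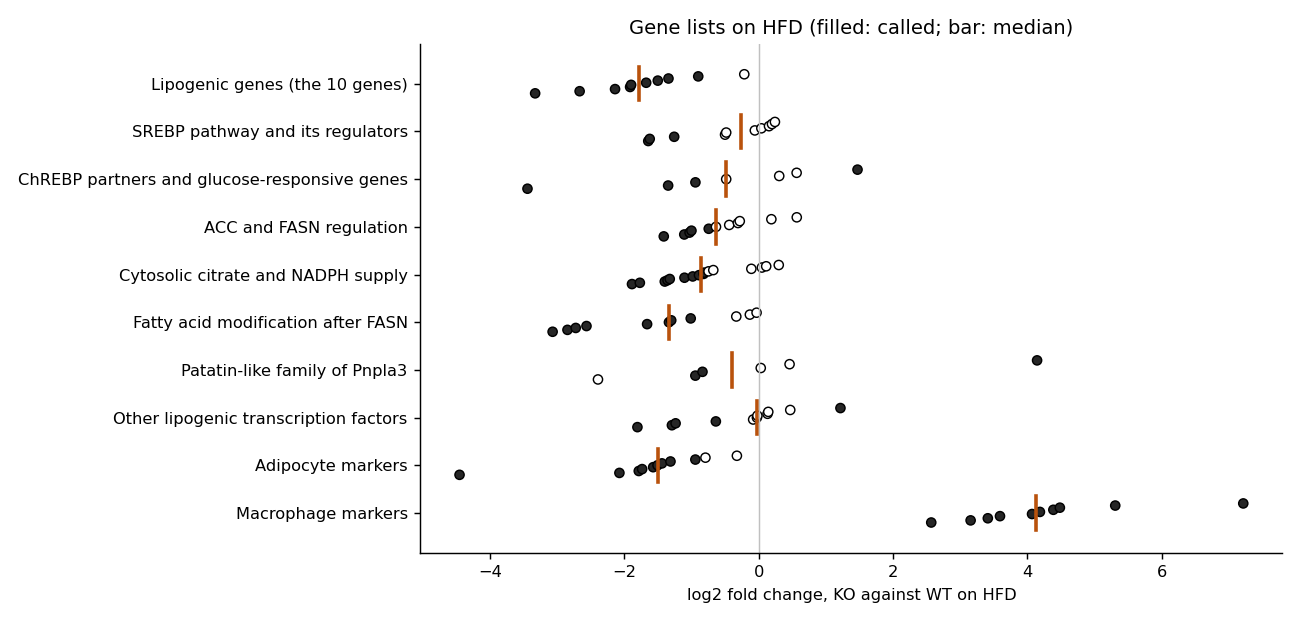
Log2 fold changes in KO versus WT on HFD for the tested genes of 10 lists, one point a gene (filled: called) with the list's median as an orange bar. The lipogenic genes have a median of -1.79, the adipocyte markers -1.51 and the macrophage markers 4.13.

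The genes whose pattern over the 8 libraries was most like the mean of the 10 lipogenic genes, out of 12015 genes, were Chp1 (Pearson r = 0.995), Mfn2 (0.994), H2-T22 (0.994), Amotl1 (0.992) and Cpeb3 (0.991). Chp1 had 3270 and 3325 normalized counts in WT mice on NC and 2453 and 3378 in KO on NC, and 5956 and 5939 in WT on HFD and 2818 and 1774 in KO on HFD. These 5 genes were highest in WT on HFD and lowest in the second KO HFD library. For Srebf1 they included Pgm2 (0.988), Zeb2, Pex13 and Nicn1 (each 0.987), and for Mlxipl they included Ptp4a1 (0.993), Thra (0.983), Dennd2d (0.982) and Snx25 (0.975). The correlations describe 8 libraries that share groups and scaling and carry no p.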

How the data were processed

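Total RNA of white adipocytes was depleted of ribosomal RNA and made into stranded libraries. Per the labels and the study's methods, the authors checked reads with FastQC, trimmed them, aligned them to GRCm38 with STAR 2.5.2b, counted them per gene with featureCounts 1.5.1 and used DESeq2 1.14.1. The deposited values are a score, for which the authors scaled the counts of each library by 1 factor and then rounded them. The method of the size factors was not given in the sources used here, whole reads could not be recovered gene by gene, and no count model was run.

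Samples were grouped by the labels. Genes with a mean of at least 5 (18800 of 30387) were tested with limma 3.58.1 in R 4.3.3 (lmFit, contrasts.fit, eBayes with trend) on log2(value + 1), in 1 fit of 4 group means with 4 residual degrees of freedom, so fold changes of low genes are understated. All adjusted p-values are from limma with Benjamini-Hochberg adjustment over all genes tested. A gene was called at an adjusted p of at most 0.05 and an absolute log2 fold change of at least 0.59. "Fell" and "rose" are used of called genes. On simulated data with 18805 genes, 40 of 100 genes changed by 1 log2 unit and 100 of 100 changed by 2 were recovered for the HFD comparison, none in the wrong direction, and 8 unchanged genes were called.

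Depth was estimated from the steps between values, and reads carry no molecular identifiers. A library at 0 allows up to 3 reads, for counting error only. Named genes are the 10 genes, Yap1 and Wwtr1, at most 5 called genes of each of 7 pathway lists by size of change on HFD and regulators for their role, and the genes most alike by Pearson r on log2(value + 1) with a mean of at least 50, of which 2 are not reported here. Genes of these lists called on NC, in WT on HFD or by the interaction were named after their values were seen. The genes and lists were chosen with earlier results of these data known. Marker lists of 8 cell types were checked: beside those in the results, on HFD 2 of 6 endothelial markers were called higher, 1 of 5 mesothelial markers lower and 1 of 3 tested lymphocyte markers higher, 0 of 4 tested brown adipocyte markers were called (median log2 fold change 1.29), and no epididymal epithelium marker passed the filter. Exon lengths and overlaps are from GENCODE vM21 and promoter windows from RefSeq on GRCm38.p6. Alternatives were other pseudocounts, filters and scalings, the robust form of eBayes, a block for the replicate number, only the groups compared, the WT HFD libraries averaged, and each library left out. Python 3.11.15 (pandas 2.3.3, numpy 2.4.6) was used for tables and matplotlib 3.10.9 for figures.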

Additional observations from a re-analysis of the deposited data

Results flagged for a closer look

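For 7 of the 10 lipogenic genes the effect of the genotype differed between the diets by the interaction term of the limma fit. The genotype effect on HFD minus that on NC, on the log2 scale, was -2.97 for Acss2, -2.36 for Fasn, -1.92 for Pnpla3, -1.84 for Me1, -1.84 for Thrsp, -1.72 for Acly and -1.27 for Acaca. In each, the effect was more negative on HFD, the direction in which 8.73% of all genes tested were called. The calls went from 7 to 2, Acly and Acss2, when no filter on low values was set, where 1.06% of all genes tested were called in that direction. They went to 1, Acss2, when libraries were scaled to the adipocyte markers, where 0.112% were. With WT HFD averaged to 1 sample, the calls for Acly and Acss2 remained and the others did not. Fewer of all genes tested were called in that fit too. Markers of cell types were also called by this term: 7 of 11 adipocyte markers in the negative direction, and 10 of 10 macrophage, 6 of 7 fibroblast and progenitor and 5 of 6 endothelial markers in the positive one. Their part was not tested.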

How the results depend on the processing

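The comparison on HFD kept 8 or 9 calls for lower levels among the 10 genes in every setting but the scaling to adipocyte markers, which called 3, 1 of them higher. With 1 library left out, the log2 fold change on HFD ranged from -3.92 to -2.74 for Fasn, -3.30 to -2.03 for Acss2 and -2.73 to -1.54 for Pnpla3. It ranged from -2.52 to -1.28 for Me1, -2.22 to -1.61 for Acaca, -1.93 to -1.42 for Acly and -1.79 to -0.89 for Thrsp. For Mlxipl it was -1.74 to -1.26, for Srebf1 -1.32 to -0.48 and for Acacb -0.40 to -0.03. Acacb turned positive on HFD with libraries scaled to the same total (0.17), with quantile normalization (0.20) and relative to the markers (1.42), as did Thrsp (0.29), Srebf1 (0.73) and Mlxipl (0.13) in the last. Scaling to the same total moved the median of all genes on HFD from 0.10 to 0.47. On NC 1 gene was called with the same total, where 1.52% of all genes tested were called lower and 2.88% higher. The calls on NC also moved with 1 library left out. The WT diet comparison lost calls with the WT HFD libraries averaged and with some single libraries left out, where fewer of all genes tested were called higher too. Acacb was called higher with a pseudocount of 8 (limma adjusted p = 0.0455) and upper-quartile scaling (0.0476), and Acaca with only the groups compared (0.00845). Of all genes tested 9.22%, 9.02% and 11% were called higher in these settings. Mlxipl was called lower with the same total (-0.76, limma adjusted p = 0.0285), as were 19%. The KO diet comparison had 0 calls with a pseudocount of 0.1, no filter, a mean of at least 50, robust eBayes, the replicate block or only the groups compared. Of all genes tested, 0.383%, 0.00658%, 0.951%, 0.702%, 0.372% and 0% were called lower in these settings, in the same order, and at most 0.546% higher. A count of 0 among 10 genes is therefore no result about them. With the WT HFD libraries averaged or 1 library left out, the calls moved among the 10 genes and over all genes tested. The interaction had 2 calls without a filter (1.06% of all genes tested called in the negative direction) and 1 relative to the markers (0.112%). With the WT HFD libraries averaged or 1 library left out, its calls moved among the 10 genes and over all genes tested. The mean share of the 10 genes was 0.572% in WT on NC and 1.30% in WT on HFD without Scd1 and the mitochondrial genome in the total.

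The other signs that turned were, except for the interaction of Acaca, those of values that had not been called. On NC, Acly was -0.01 with upper-quartile scaling, and Me1 0.03 and Srebf1 0.02 relative to the markers. In WT on HFD, relative to the markers, Srebf1 was -0.05 and Pnpla3 -0.09. In KO on HFD, relative to the markers, Fasn was 0.29, Acaca 0.37, Acacb 0.88, Acly 0.92, Me1 0.83, Thrsp 0.45, Srebf1 0.66 and Mlxipl 0.02. The interaction, relative to the markers, was 0.27 for Acaca, 0.42 for Acacb, 0.71 for Srebf1 and 0.90 for Mlxipl. With 1 library left out, the NC comparison ranged from -0.23 to 0.12 for Me1, from -0.28 to 0.14 for Srebf1, from -0.60 to 0.16 for Pnpla3, from -0.15 to 0.24 for Acly and from -0.10 to 0.71 for Acss2. The KO diet comparison then ranged from -0.52 to 0.74 for Acss2, from -0.51 to 0.26 for Acacb, from -0.34 to 0.18 for Acly, from -0.80 to 0.44 for Me1 and from -0.76 to 0.07 for Srebf1. The cause of these changes was not tested.

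The replicate number as a replicate block left 9 calls on HFD, 0 on NC, 5 in WT and 7 for the interaction, and 0 in KO. The numbers did not pair the samples: differences between replicates correlated at -0.30 to 0.11 between groups. With 2 libraries a group, a change of 1 log2 unit was recovered less often than one of 2 in the simulation.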
